A study of Mus musculus with 8 samples.

Results

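The extracellular matrix around a muscle fibre holds, beside its collagens, a set of glycoproteins, proteoglycans and the enzymes that crosslink them. A list of 46 such genes was followed in cultured satellite cells without Dnmt3a and in wild-type (WT) cells over 4 days of differentiation. Members were found by gene name among the array's probes, where 66 probes carry one of the 46 names and 31732 genes have a probe in all. The rule goes by name and function and uses no measured value, although the list was proposed with earlier results of these data known. Of the 46 genes, 43 were well above background on at least 4 of the 8 arrays and entered the tests, out of 19655 genes tested. Lum and Prelp, a pair of small leucine-rich proteoglycans, were not well above background on any array. Aspn, of the same family, was so on 1 array, the Dnmt3a-KO array of day 5.

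Fibronectin is laid down first in a new matrix and is bound by integrins on the cell surface. Fibrillin microfibrils, the fibulins and the latent TGF-beta binding proteins form the elastic fibre system, which also stores TGF-beta in a latent form. Lysyl oxidases crosslink collagen and elastin outside the cell, and the lysyl hydroxylases prepare collagen for this inside it. Matricellular proteins such as periostin, the thrombospondins, tenascin C and Ctgf are secreted into the matrix and act there as signals rather than as scaffold, and nidogens and perlecan belong to the basement membrane that wraps a muscle fibre and its satellite cells.

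The cells were satellite cells, which repair muscle after injury, isolated from a fast hindlimb muscle, the extensor digitorum longus (EDL). The Dnmt3a-KO mice lacked a DNA methyltransferase that places new methyl marks, and WT littermates of matched age and sex were set against them. All mice were labelled as male and 8 weeks old, and both genotypes were grown for 5 days in growth medium, replated at equal cell numbers and kept in differentiation medium for 2, 4, 5 or 6 days. Each genotype has 1 array per day, so there are 4 arrays of Dnmt3a-KO and 4 of WT cells. The strain, the deleted allele and whether a day's cells came from separate animals are not given in the sources used here. The p-values therefore measure the spread between these arrays, which may be technical.

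Each array held 43020 spots beside its controls, and 61.6% to 67.4% of them stood well above background. Dnmt3a signal in Dnmt3a-KO cells was 46.2%, 19.8%, 21.7% and 19.1% of that in WT cells on days 2, 4, 5 and 6, and the labels do not say whether its probe lies in the deleted part. Both day 2 arrays lay on a slide of their own and were read with another scanner and software version, days 4 and 5 shared a slide, and day 6 had its own. Of the Y chromosome, Uty, Kdm5d, Eif2s3y and Ddx3y stood above background on both day 2 arrays only, and Xist on the arrays of days 4, 5 and 6 only, although the labels call all mice male. Every day held both genotypes on 1 slide, so a difference between genotypes within a day is not a difference between slides, while a change between day 2 and the later days cannot be told apart from the slide, the scanner or the mice. Levels are given as relative signal, in which the 75th percentile of an array is 100, and levels of different probes are not compared.

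On days 4 and 6 most of the matrix genes had less signal in Dnmt3a-KO than in WT cells, and on day 5 most had more. On day 4, 36 of the 43 genes were lower in Dnmt3a-KO cells (52.6% of all genes tested were) and 7 higher (47.3%). On day 6, 32 were lower (45.5%) and 11 higher (54.4%). On day 5 the count turned, with 33 higher (40.8%) and 10 lower (59.2%), and on day 2 26 were higher (51.6%) and 16 lower (46.7%). The median difference over the 43 genes, Dnmt3a-KO minus WT on the log2 scale, was 0.19, -0.52, 0.19 and -0.52 on days 2, 4, 5 and 6, and over all genes it was 0.007, -0.017, -0.048 and 0.023. Of the 43, 21 were lower on both days 4 and 6 and higher on day 5, a pattern that 11.9% of all genes tested showed. Further probes that RefSeq places in a member and that were well above background on 4 or more arrays had the sign of the chosen probe in 13 of 15 cases on day 2, 13 of 14 on day 4, 12 of 15 on day 5 and 14 of 15 on day 6.

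Single days have 1 array per genotype and no test, so genes at least 2-fold apart were counted with the brighter array well above background. On day 2, 7 matrix genes were at least 2-fold higher in Dnmt3a-KO cells (1.89% of all genes were) and 0 lower (1.14%). On day 4, 2 were higher (1.46%) and 12 lower (3.07%), on day 5 1 was higher (0.916%) and 0 lower (1.82%), and on day 6 1 was higher (1.3%) and 11 lower (1.88%). Fbn1, Loxl2, Loxl3, Postn, Fbln2, Efemp1 and Ctgf were lower by 2-fold or more on both days 4 and 6, which 0.997% of all genes were. At 1.5-fold, 12 were higher (5.26%) and 0 lower (4.23%) on day 2, 4 higher (4.98%) and 20 lower (7.84%) on day 4, 6 higher (2.95%) and 0 lower (5.87%) on day 5, and 2 higher (4.56%) and 20 lower (5.75%) on day 6.

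**Figure D1:**
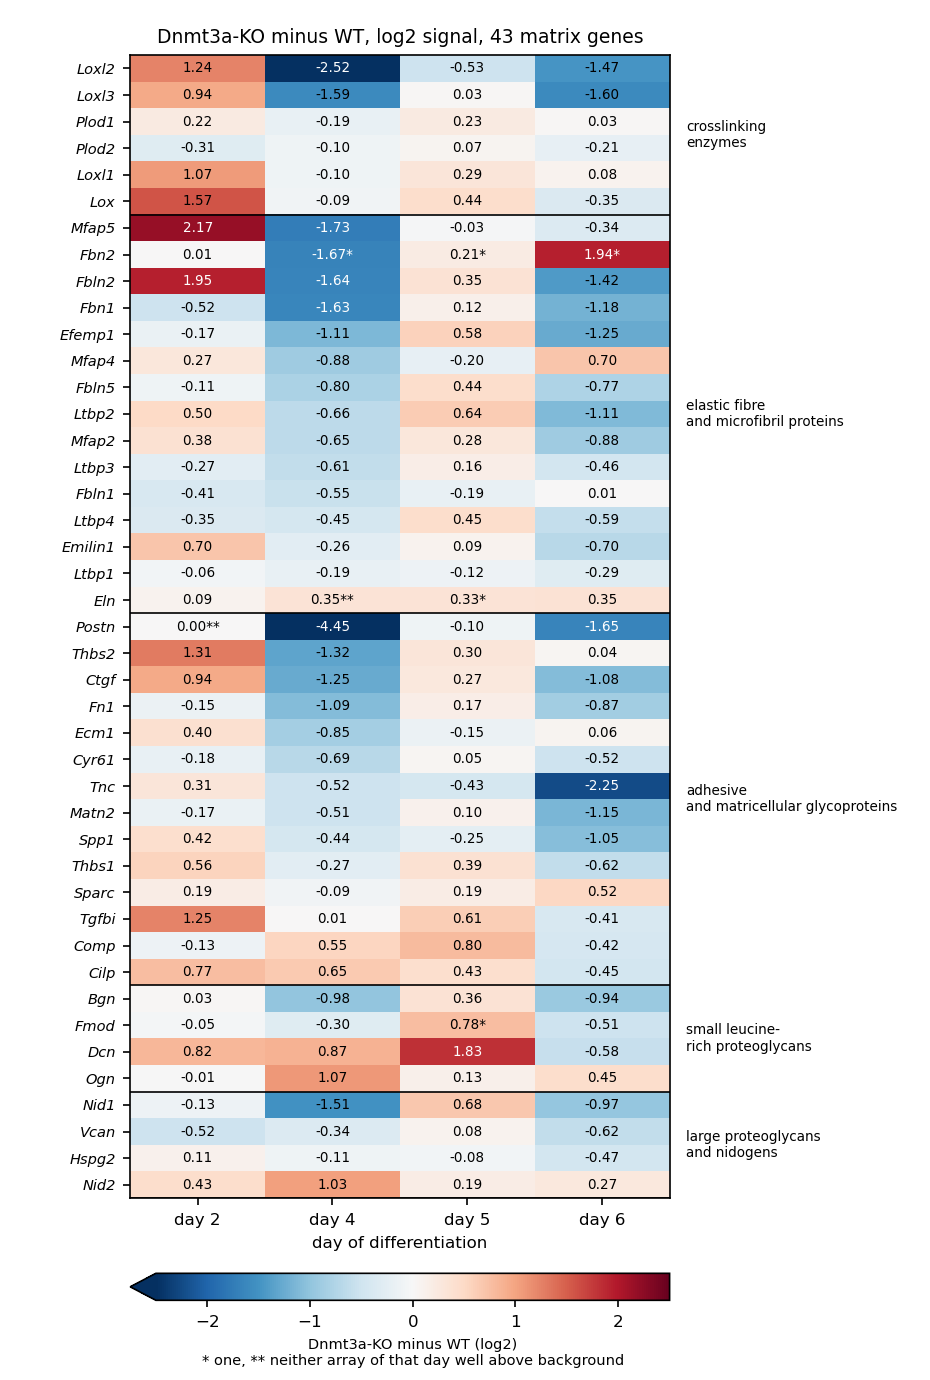
Dnmt3a-KO minus WT difference in log2 signal for the 43 matrix genes tested (down the page, by role, ordered by day 4 within a role) on days 2, 4, 5 and 6 (across). Red is higher and blue lower in Dnmt3a-KO cells, colours stop at 2.5, and stars mark days on which 1 or neither array was well above background. The columns of days 4 and 6 are mainly blue, with 36 and 32 of 43 genes lower, and that of day 5 is mainly pale red, with 33 of 43 higher.

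Taken over the 4 days, the genotypes did not differ past the threshold for a matrix gene. With limma, day as a block and adjustment over all genes tested, 0 of 43 passed an adjusted p of 0.05, where 0.0102% of all genes did (0.00509% higher and 0.00509% lower). Under each alternative tried 0 of 43 passed as well, while from 0 to 128 of all genes did. At an unadjusted p under 0.05 there were 4 (12.9% of all genes), Eln and Nid2 higher (6.17%) and Fbn1 and Vcan lower (6.71%). The daily differences of the matrix genes also lay farther apart, since their SD over the 4 days had a median of 0.59 and that of all genes tested a median of 0.20. Spread was widest for Postn at 2.07, Fbln2 at 1.68, Mfap5 at 1.615 and Loxl2 at 1.596, and narrowest for Ltbp1 at 0.099, Eln at 0.13 and Plod2 at 0.16. Of the 43 genes, 2 were higher on all 4 days (10.9% of all genes were), Eln and Nid2, and 1 was lower on all 4 (11.5%), Ltbp1.

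Among the 6 crosslinking enzymes, the lysyl oxidases Lox, Loxl1, Loxl2 and Loxl3 had higher signal in Dnmt3a-KO cells on day 2, and Loxl2 and Loxl3 were the ones that stood apart on days 4 and 6. Their median differences were 1.01, -0.15, 0.15 and -0.28 on the log2 scale. Loxl2 had relative signals of 35.4, 48.4, 414 and 61.1 in Dnmt3a-KO cells on days 2, 4, 5 and 6, against 14.97, 277, 596 and 169.7 in WT cells. It was 2.36-fold higher on day 2, then 5.73-fold lower on day 4, 1.44-fold lower on day 5 and 2.78-fold lower on day 6, with a mean difference of -0.82 ± 1.596 (SD over 4 days, limma adjusted p = 0.60). Its probe lies at chr14:70095254-70095313 (mm9, plus strand), and the other 2 Loxl2 probes on chromosome 14 had the same sign on each day. A probe that carries the Loxl2 name but a predicted accession and a site on chromosome 2 differed by at most 0.14 on any day, and it enters only the mean of all probes tried as an alternative.

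Loxl3 gave 13.9, 14.2, 73.4 and 15.3 in Dnmt3a-KO cells, against 7.23, 42.8, 71.7 and 46.4 in WT cells, so that it was 3.02-fold lower on day 4 and 3.03-fold lower on day 6 in Dnmt3a-KO cells and level on day 5. Lox itself, the founding lysyl oxidase, showed 4.42, 125, 349 and 175 in Dnmt3a-KO cells against 1.48, 133, 258 and 224 in WT cells. It was 2.98-fold higher in Dnmt3a-KO cells on day 2 and differed by 1.35-fold or less after that. A second Lox probe, well above background on all 8 arrays, gave a smaller day 2 difference of 0.64 on the log2 scale, against 1.57 for the first. Loxl1, which acts on elastin, was 2.10-fold higher on day 2 and within 1.23-fold later.

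The lysyl hydroxylases differed little. Plod2, which modifies the telopeptides of collagen, had 101, 76.2, 88.6 and 69.9 in Dnmt3a-KO cells and 126, 81.8, 84.3 and 80.8 in WT cells, and its mean difference was -0.14 ± 0.16. For Plod1 the daily differences ran from -0.19 to 0.23. Neither gene reached 1.5-fold on any day.

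The elastic fibre and microfibril proteins were lower in Dnmt3a-KO cells on day 4 for 14 of 15 genes and on day 6 for 11 of 15, and higher on day 5 for 11 of 15, with median differences of 0.01, -0.66, 0.21 and -0.59. Fbn1, the main fibrillin of microfibrils, had relative signals of 30.3, 37.5, 241 and 65.8 in Dnmt3a-KO cells on days 2, 4, 5 and 6, against 43.3, 116, 222 and 149 in WT cells. It was 3.09-fold lower on day 4, within 1.09-fold on day 5 and 2.26-fold lower on day 6, with a mean of -0.80 ± 0.77 (SD over 4 days, limma unadjusted p = 0.042, adjusted p = 0.37). Day 5 was the 1 day on which it was not lower. Fbn2, the fibrillin of developing tissue, was dim throughout, with 4.64, -0.014, 2.38 and 2.93 in Dnmt3a-KO cells and 4.596, 2.43, 2.06 and -0.676 in WT cells, where values below 0 come from background subtraction. On day 4 it was not well above background in Dnmt3a-KO cells and at least 3.18-fold lower, and on day 6 not in WT cells and at least 2.51-fold higher.

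Fbln2, a fibulin that binds fibronectin and fibrillin, had 169, 768, 4855 and 1069 in Dnmt3a-KO cells, against 43.9, 2399.8, 3804 and 2861 in WT cells. Its genotype difference had another sign on each next day, 3.86-fold higher on day 2, 3.13-fold lower on day 4, 1.28-fold higher on day 5 and 2.68-fold lower on day 6. Efemp1, also called fibulin 3, was dim on day 2 and bright later, with 3.99, 60.5, 498 and 68.7 in Dnmt3a-KO cells against 4.50, 131, 334 and 164 in WT cells. On day 4 it was 2.17-fold lower in the Dnmt3a-KO array, 1.49-fold higher on day 5 and 2.38-fold lower on day 6. Fbln5, which helps elastin assemble, followed the same signs at 1.74-fold lower, 1.36-fold higher and 1.70-fold lower. Fbln1 was the exception, with 21.5, 4.55, 5.43 and 5.31 in Dnmt3a-KO cells and 28.5, 6.66, 6.17 and 5.28 in WT cells, and thus low after day 2 in both genotypes.

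Ltbp2, a fibrillin-like protein of elastic fibres, had 37.9, 356, 1815 and 418 in Dnmt3a-KO cells, against 26.9, 561, 1165 and 903 in WT cells. It stood 1.58-fold lower on day 4, 1.56-fold higher on day 5 and 2.16-fold lower on day 6. The 3 binding proteins that carry latent TGF-beta differed less. Ltbp1 was lower on every day, with 191, 137, 138 and 143 in Dnmt3a-KO cells against 199, 157, 150.1 and 175 in WT cells, a mean of -0.17 ± 0.10 (SD over 4 days, limma adjusted p = 0.41). Ltbp3 and Ltbp4 were lower on days 2, 4 and 6 and higher on day 5, with daily differences between -0.61 and 0.45.

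Among the microfibril-associated proteins, Mfap5 had 14.2, 104, 646 and 213 in Dnmt3a-KO cells, against 3.15, 346, 659 and 269.7 in WT cells. It held the largest day 2 difference of the 43 genes, 4.51-fold higher, was 3.31-fold lower on day 4 and level on day 5. Mfap4 had another sign on day 6, with 112, 305, 329 and 606 in Dnmt3a-KO cells against 92.8, 562, 379 and 373 in WT cells, so it was 1.84-fold lower on day 4 and 1.62-fold higher on day 6. Mfap2 and Emilin1 stayed at 14.96 relative signal or less and were lower on days 4 and 6 and higher on days 2 and 5. Eln, elastin itself, was near background, with 1.68, 1.84, 2.92 and 2.82 in Dnmt3a-KO cells and 1.59, 1.44, 2.32 and 2.20 in WT cells. Neither day 4 array nor the WT array of day 5 was well above background for it, and its mean of 0.28 ± 0.13 (SD over 4 days, limma unadjusted p = 0.015, adjusted p = 0.30) rests on these low signals. It was 0.0013 with normexp background correction and 0.54 with the deposited score.

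**Figure D2:**
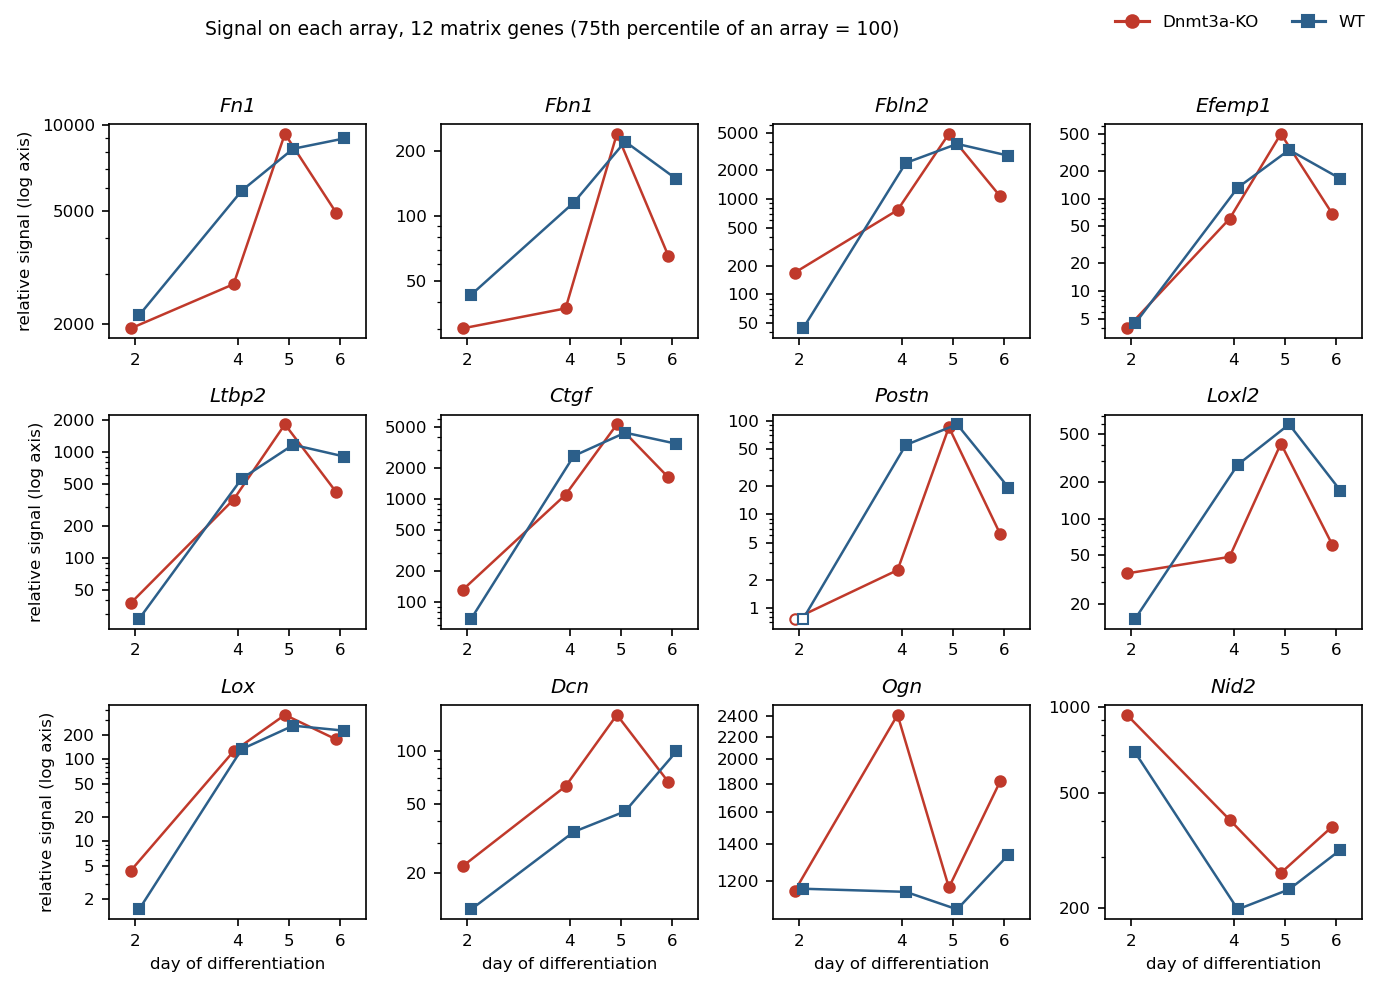
Relative signal (log axis, 75th percentile of an array = 100) on each array for 12 of the matrix genes against day of differentiation, with Dnmt3a-KO in red circles and WT in blue squares. Filled marks are well above background, open ones are not. In all panels but those of Ogn and Nid2 the Dnmt3a-KO line peaks on day 5, at 85.8 (Postn) or more.

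Of 14 adhesive and matricellular glycoproteins, 11 were lower in Dnmt3a-KO cells on day 4 and 11 on day 6, with median differences of 0.36, -0.52, 0.18 and -0.57 on the 4 days. Postn (periostin, which binds collagen and integrins) had the largest single difference of the list. Its relative signal was 0.299, 2.54, 85.8 and 6.16 in Dnmt3a-KO cells on days 2, 4, 5 and 6, against 0.418, 55.3, 92.0 and 19.4 in WT cells. It was not well above background in either genotype on day 2, 21.8-fold lower in the Dnmt3a-KO array of day 4, within 1.07-fold on day 5 and 3.15-fold lower on day 6. The mean was -1.55 ± 2.07 (SD over 4 days, limma adjusted p = 0.47), so the spread between days exceeded it. It was -0.85 with normexp and -0.58 without day 4. The probe lies at chr3:54194840-54194899 (mm9, plus strand).

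Fn1, fibronectin, had 1931, 2759, 9287 and 4908 in Dnmt3a-KO cells, against 2146, 5870.4, 8231 and 8950.1 in WT cells (chr1:71632116-71632175, mm9, minus strand). It was brightest on day 5 in Dnmt3a-KO cells and on day 6 in WT cells. The genotypes were 2.13-fold apart on day 4 and 1.82-fold on day 6, lower in Dnmt3a-KO cells both times, and the mean was -0.48 ± 0.59 (SD over 4 days, limma adjusted p = 0.45). Ctgf, a matricellular growth factor induced by TGF-beta and YAP, had 133, 1109, 5343 and 1637 in Dnmt3a-KO cells against 69.1, 2639, 4434 and 3462 in WT cells (chr10:24318281-24318340, mm9, plus strand). It was 1.92-fold higher on day 2, 2.38-fold lower on day 4, 1.21-fold higher on day 5 and 2.12-fold lower on day 6. Its relative Cyr61 had the same signs after day 2 and smaller sizes, with 606, 405, 808 and 487 in Dnmt3a-KO cells against 686, 653, 781 and 700.2 in WT cells.

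Tnc (tenascin C, a protein of injured and growing matrix) had 13.4, 7.89, 12.6 and 6.07 in Dnmt3a-KO cells, against 10.8, 11.3, 17.0 and 28.8 in WT cells. The 4.74-fold lower signal on day 6 was its largest difference. A second Tnc probe, at chr4:63674248-63675011 (mm9), was not well above background in Dnmt3a-KO cells on day 5 and at least 28.8-fold lower there, while the first was 1.35-fold lower, so the 2 probes differ in size on that day. Spp1, osteopontin, had 3986, 1183, 1617 and 2104 in Dnmt3a-KO cells against 2986, 1602, 1923 and 4370.0 in WT cells and was 2.08-fold lower on day 6. Tnc was the only member with an unadjusted p under 0.05 for a genotype difference that drifts with day (limma interaction, unadjusted p = 0.022, against 1.11% of all genes), and 0 of 43 passed after adjustment (0% of all genes).

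Sparc, a collagen-binding glycoprotein, kept close between genotypes, with 468, 439, 780.1 and 575 in Dnmt3a-KO cells and 409, 467, 684 and 400.0 in WT cells. Its mean difference was 0.20 ± 0.25 and its largest ratio 1.44-fold, on day 6. A second Sparc probe had the opposite sign on days 5 and 6, at -0.11 and -0.17. Comp, a thrombospondin of cartilage and tendon, had 2.34, 31.3, 48.9 and 25.3 in Dnmt3a-KO cells against 2.56, 21.4, 28.1 and 33.9 in WT cells and was higher in Dnmt3a-KO cells on days 4 and 5 alone. Cilp, a cartilage matrix protein that binds TGF-beta, was higher on days 2, 4 and 5 and lower on day 6, with differences between -0.45 and 0.77. Thbs2, an angiogenesis inhibitor, was 2.47-fold higher on day 2, 2.49-fold lower on day 4 and level on day 6. Tgfbi was 2.37-fold higher on day 2 and within 1.53-fold later. Thbs1, Matn2 and Ecm1 had lower signal on day 4, by 1.21-fold, 1.43-fold and 1.81-fold, and on day 6 Matn2 was 2.21-fold and Thbs1 1.54-fold lower, while Ecm1 was level.

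Each spot carries a 60-base probe, and for 4 members the file headers place the chosen probe over a stretch of genome longer than itself. The Thbs2 probe covers chr17:14804526-14805789 on the minus strand and the Comp probe chr8:72905692-72905825 on the plus strand (mm9). They are printed because these thrombospondins had opposite signs on day 4, Thbs2 lower and Comp 1.46-fold higher in Dnmt3a-KO cells.
Thbs2: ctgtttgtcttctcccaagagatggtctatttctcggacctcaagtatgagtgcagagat
Comp: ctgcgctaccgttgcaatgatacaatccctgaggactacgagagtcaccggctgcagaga

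The small leucine-rich proteoglycans, which coat collagen fibrils and bind TGF-beta, had several courses, and the 4 tested had median differences of 0.01, 0.28, 0.57 and -0.55. Dcn, decorin, had relative signals of 22.1, 63.1, 162 and 66.9 in Dnmt3a-KO cells on days 2, 4, 5 and 6, against 12.5, 34.6, 45.3 and 99.97 in WT cells (chr10:96980233-96980292, mm9, plus strand). It was higher on days 2, 4 and 5, by 1.77-fold, 1.82-fold and 3.57-fold, and 1.49-fold lower on day 6. Its mean was the highest of the list, at 0.74 ± 0.99 (SD over 4 days, limma adjusted p = 0.48). Ogn, also named mimecan, had 1151, 2413, 1167 and 1825 in Dnmt3a-KO cells against 1160.3, 1145, 1064 and 1339 in WT cells. It was level on days 2 and 5 and 2.11-fold higher on day 4 and 1.36-fold higher on day 6, the reverse of most members on those days.

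Bgn, biglycan, followed the majority, with 1.98-fold lower signal on day 4, 1.29-fold higher on day 5 and 1.92-fold lower on day 6. Fmod, fibromodulin, was dim, with 1.69, 2.37, 4.07 and 3.57 in Dnmt3a-KO cells and 1.76, 2.93, 2.37 and 5.10 in WT cells. Its WT array of day 5 was not well above background, which gives at least 1.72-fold higher signal in Dnmt3a-KO cells. Aspn was well above background only in Dnmt3a-KO cells on day 5, at 4.45 and at least 2.01-fold higher, and Lum and Prelp gave no level in either genotype.

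Among the large proteoglycans and the nidogens, the 2 nidogens had opposite signs on day 4, and the 4 genes had median differences of -0.01, -0.22, 0.14 and -0.54. Nid2 had 937, 405, 265 and 383 in Dnmt3a-KO cells, against 694, 198, 232 and 318 in WT cells, and was higher on all 4 days by 1.14-fold to 2.05-fold. Its mean was 0.48 ± 0.38 (SD over 4 days, limma unadjusted p = 0.027, adjusted p = 0.34). Nid1 was 2.84-fold lower on day 4, 1.599-fold higher on day 5 and 1.96-fold lower on day 6. Vcan, the hyaluronan-binding proteoglycan versican, had 72.7, 34.8, 57.4 and 32.8 in Dnmt3a-KO cells against 105, 43.9, 54.3 and 50.3 in WT cells and was lower on days 2, 4 and 6, with a mean of -0.35 ± 0.31 (SD over 4 days, limma unadjusted p = 0.045, adjusted p = 0.38). Hspg2, the basement membrane proteoglycan perlecan, had 1888, 868, 1008 and 697 in Dnmt3a-KO cells and 1755, 935, 1062 and 962 in WT cells and differed by 1.08-fold or less until day 6, when it was 1.38-fold lower.

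Within a genotype, the same genes stepped further in Dnmt3a-KO than in WT cells between days 4 and 6. From day 4 to day 5, on 1 slide, 21 of 43 matrix genes were at least 2-fold higher on day 5 in Dnmt3a-KO cells (3.61% of all genes were) and 1, Ogn, lower (2.28%). In WT cells 3 were higher (1.11%), Loxl2, Efemp1 and Ltbp2, and 0 lower (0.651%). From day 5 to day 6, 19 were lower by 2-fold or more in Dnmt3a-KO cells (2.75%) and 5 in WT cells (1.77%), Loxl2, Thbs2, Postn, Efemp1 and Mfap5. On day 6, 0 were higher than on day 5 in Dnmt3a-KO cells (1.48%) and 3 in WT cells (0.824%), Dcn, Fmod and Spp1. Day 5 was the brightest of the 4 days for 30 members in Dnmt3a-KO cells (19% of all genes) and for 23 in WT cells (24.8%). The median step from day 4 to day 5 was 0.998 in Dnmt3a-KO cells and 0.39 in WT cells on the log2 scale, and from day 5 to day 6 it was -0.92 in Dnmt3a-KO cells and -0.16 in WT cells. Over all genes tested these medians lay between -0.036 and 0.055. Between days 2 and 4, on different slides, 13 members were at least 2-fold higher on day 4 in Dnmt3a-KO cells (14.3%) and 20 in WT cells (15.4%), and 8 were lower in Dnmt3a-KO cells (11.2%) and 3, Vcan, Nid2 and Fbln1, in WT cells (10.4%). These steps use the same arrays as the daily genotype differences and are not separate evidence.

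The 7 members given here show the size of the step. Day 5 exceeded day 4 by 33.8-fold for Postn in Dnmt3a-KO cells, against 1.66-fold in WT cells. For Loxl2 the ratio was 8.55 in Dnmt3a-KO cells and 2.15 in WT cells, for Efemp1 8.23 in Dnmt3a-KO and 2.55 in WT cells, for Fbn1 6.44 in Dnmt3a-KO and 1.92 in WT cells, and for Fbln2 6.325 in Dnmt3a-KO and 1.585 in WT cells. Nid1 had ratios of 5.47 in Dnmt3a-KO cells and 1.203 in WT cells, and Ctgf 4.82 in Dnmt3a-KO and 1.68 in WT cells. All 7 were higher on day 5 in both genotypes, with the larger ratio in Dnmt3a-KO cells. Mfap5 (6.19), Loxl3 (5.18) and Ltbp2 (5.10) also had larger ratios in Dnmt3a-KO cells than Ctgf. Ogn, Nid2, Cilp and Eln had the smaller ratio in Dnmt3a-KO cells, for Ogn 0.48 in Dnmt3a-KO and 0.93 in WT cells.

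**Figure D3:**
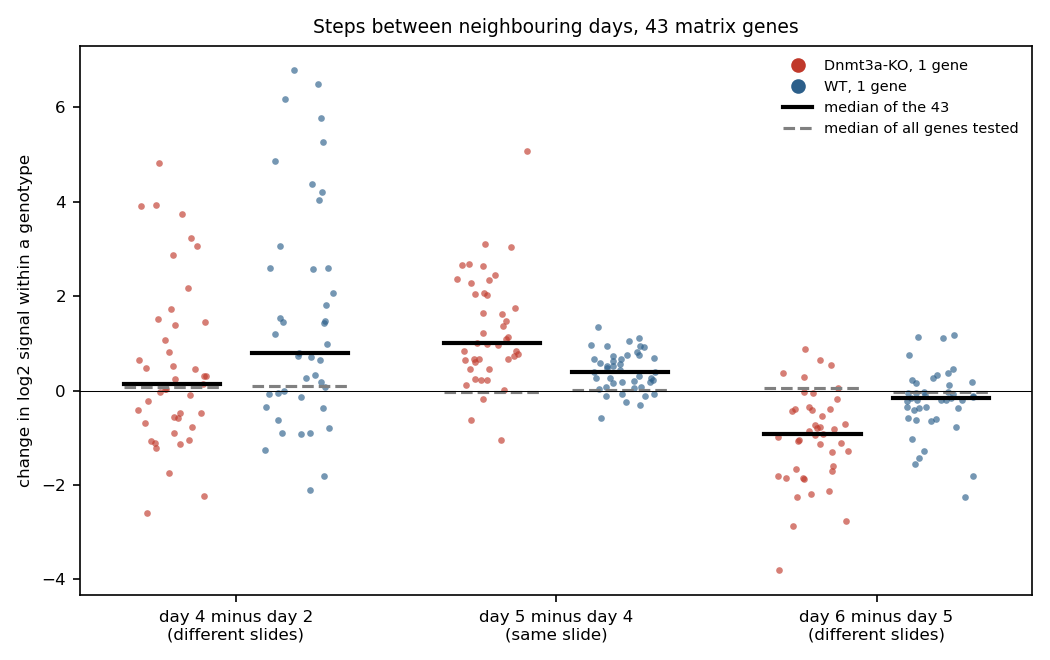
Change in log2 signal between neighbouring days within a genotype for the 43 matrix genes (1 point each), Dnmt3a-KO in red at the left and WT in blue at the right of each pair. Black bars are medians of the 43 and grey dashed bars medians of all genes tested. From day 4 to day 5 the Dnmt3a-KO points have a median of 0.998 and the WT points of 0.39, and from day 5 to day 6 they have medians of -0.92 and -0.16.

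Over the whole course, with genotype as a covariate, 16 of 43 matrix genes rose with day and 4 fell by limma at an adjusted p of 0.05, against 25.9% of all genes rising and 19.5% falling. At an unadjusted p under 0.05 there were 26 (56% of all genes). Among the genes past the threshold the steepest rises were those of Lox at 1.68 ± 0.31 log2 units per day (SE, adjusted p = 0.012), Mfap5 at 1.46 ± 0.36 (adjusted p = 0.019), Efemp1 at 1.37 ± 0.34 (adjusted p = 0.020), Ctgf at 1.29 ± 0.28 (adjusted p = 0.015), Fbln2 at 1.24 ± 0.32 (adjusted p = 0.022) and Ltbp2 at 1.22 ± 0.27 (adjusted p = 0.016). Fn1, Comp, Dcn, Cilp, Bgn, Fbln5, Mfap4, Fmod, Eln and Plod1 also rose, by 0.17 to 0.96 per day. The 4 that fell were Fbln1 at -0.56 ± 0.12, Nid2 at -0.34 ± 0.12, Hspg2 at -0.27 ± 0.06 and Plod2 at -0.14 ± 0.04. Leaving out a day removes 2 of the 8 arrays. Without day 2, 0 members and 0 of all genes passed (2 members, Eln and Spp1, and 8.01% of all genes at an unadjusted p under 0.05). Without day 5, 1 member rose and 0 fell, and 391 of all genes passed in either direction. The median slope over the members was 0.09 without day 2 in place of 0.21. Without day 2 the slope was 0.31 in place of 1.68 for Lox, 0.36 in place of 0.49 for Fn1, 0.35 in place of 0.32 for Fmod and 0.305 in place of 0.18 for Eln. With slide as a block the slope rests on days 4 and 5 alone, the only days that shared a slide. That fit repeats the step from day 4 to day 5 over both genotypes and is not the whole course adjusted for slide. In it 0 passed as well (0% of all genes), and 19 had an unadjusted p under 0.05 (10.4% of all genes).

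**Figure D4:**
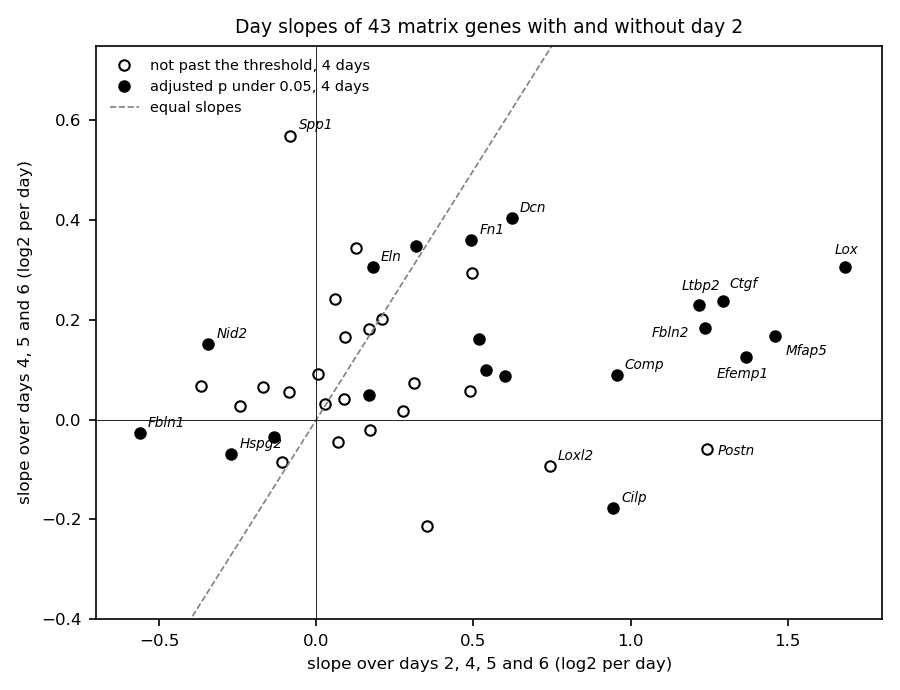
Slope of log2 signal per day for the 43 matrix genes over all 4 days (x axis) and over days 4, 5 and 6 alone (y axis), with genotype as a covariate. Filled points passed the threshold over 4 days and the dashed line marks equal slopes. Lox lies at 1.68 per day with day 2 and 0.31 without it.

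The sequence before the members' starts was searched for motifs. RefSeq promoters (GRCm38.p6, the first listed start of a gene) were found for 29 of the 46 members, and the 250 bases before the start were read. They held a median of 8 CpG sites, against 6 over 27025 promoters of the same length. TATAAA was found in 27.6% of member promoters (8 of 29) and in 13.0% of all, GGAATG, a TEAD motif, in 10.3% and 12.6%, TGANTCA, an AP-1 motif, in 6.90% and 6.87%, and CAGAC, a Smad motif, in 48.3% and 42.1%, each on both strands. CANNTG, the E-box bound by myogenic factors, was in 69.0% and 66.0%, and GTCTAGAC was in 0 member promoters and in 0.174% of all. No motif searched holds another whole.

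Promoters are printed for Fbn1, Fbln2, Efemp1 and Ltbp2, which had less signal in Dnmt3a-KO than in WT cells on days 4 and 6, beside Ogn, which had more on both days, and Cyr61, which had less on both days by smaller ratios. They lie at chr2:125506439-125506688 on the minus strand, chr6:91212514-91212763 on the plus strand, chr11:28852955-28853204 on the plus strand, chr12:84876492-84876741 on the minus strand, chr13:49607765-49608014 on the plus strand and chr3:145649986-145650235 on the minus strand, in that order (GRCm38.p6). Capitals mark matches of the TATA box, TEAD and AP-1 motifs on either strand.
Fbn1: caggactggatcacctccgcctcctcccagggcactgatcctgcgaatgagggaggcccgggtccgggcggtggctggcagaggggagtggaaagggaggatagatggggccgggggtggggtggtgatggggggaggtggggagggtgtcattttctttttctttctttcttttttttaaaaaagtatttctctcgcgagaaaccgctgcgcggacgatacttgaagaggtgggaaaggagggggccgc
Fbln2: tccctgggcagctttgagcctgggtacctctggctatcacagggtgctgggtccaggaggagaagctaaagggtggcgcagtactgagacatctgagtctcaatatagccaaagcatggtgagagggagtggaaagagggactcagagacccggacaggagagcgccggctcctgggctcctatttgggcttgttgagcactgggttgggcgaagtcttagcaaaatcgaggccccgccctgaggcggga
Efemp1: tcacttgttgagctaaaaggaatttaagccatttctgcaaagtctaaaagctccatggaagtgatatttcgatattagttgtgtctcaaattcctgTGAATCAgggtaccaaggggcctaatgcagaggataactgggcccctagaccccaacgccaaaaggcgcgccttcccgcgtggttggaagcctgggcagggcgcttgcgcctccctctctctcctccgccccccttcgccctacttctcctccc
Ltbp2: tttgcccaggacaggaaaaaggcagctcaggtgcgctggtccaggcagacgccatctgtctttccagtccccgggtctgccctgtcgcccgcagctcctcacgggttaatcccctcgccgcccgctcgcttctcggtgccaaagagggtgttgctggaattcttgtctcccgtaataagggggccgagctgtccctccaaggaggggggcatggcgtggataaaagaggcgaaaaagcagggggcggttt
Ogn: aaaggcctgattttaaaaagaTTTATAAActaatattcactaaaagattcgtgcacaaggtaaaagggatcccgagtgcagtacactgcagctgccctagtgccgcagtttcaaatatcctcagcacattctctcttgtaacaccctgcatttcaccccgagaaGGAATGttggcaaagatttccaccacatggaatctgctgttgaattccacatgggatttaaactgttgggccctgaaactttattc
Cyr61: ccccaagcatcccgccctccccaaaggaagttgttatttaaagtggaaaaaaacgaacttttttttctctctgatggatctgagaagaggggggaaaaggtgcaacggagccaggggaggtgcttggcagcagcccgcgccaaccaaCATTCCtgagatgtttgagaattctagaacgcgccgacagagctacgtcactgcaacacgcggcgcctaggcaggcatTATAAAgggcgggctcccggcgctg
Fbn1, Fbln2 and Ltbp2 hold none of the 3 marked motifs in this window, Efemp1 has an AP-1 match, and both Ogn and Cyr61 have TATA box and TEAD matches. Members with and without a match were among those lower on day 4, since Nid1 has a TEAD match and Thbs2, Tnc, Spp1, Plod1 and Ecm1 have a TATA box match. The CpG counts are 13, 8, 10, 16, 4 and 15 in the order printed.

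Other matrix genes and markers of other cells were read beside the list. Of 16 collagen genes tested, 16 were lower in Dnmt3a-KO cells on day 4 and 16 on day 6, median differences of 0.08, -1.36, 0.03 and -0.87 over the days and 0 past the threshold over the 4 days. The lowest mean differences were those of Col4a1 at -0.98, Col3a1 at -0.92 and Col8a1 at -0.89. A further 31 matrix proteins had medians of 0.06, -0.37, -0.14 and -0.21, 26 matrix enzymes 0.09, -0.17, 0.03 and -0.34, and 25 matrix receptors 0.09, -0.19, 0.08 and -0.25, with 0 called in each. In 21 targets and components of the TGF-beta and YAP pathways the medians were 0.24, 0.08, 0.20 and -0.04, and 0 passed. Of these 21, 11 were higher and 10 lower on day 4, and 9 higher and 12 lower on day 6.

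Markers of fibroblasts and fibro-adipogenic cells, which make much of the matrix in muscle, had the same signs as the list on each day by their median, 0.17, -0.56, 0.21 and -0.52. Of 12 such markers 7 were well above background on all 8 arrays and 2, Dpt and Dpp4, on none. Their summed relative signal was 663, 864, 4562 and 1413 in Dnmt3a-KO cells on days 2, 4, 5 and 6, against 709, 2266, 3987 and 2702 in WT cells. The sum includes Col1a1 and Col3a1, which are matrix genes too and hold most of its gap between genotypes on days 4 and 6. Col1a1 was 242 and 513 in Dnmt3a-KO cells on these days, against 1361 and 1233 in WT cells. Col3a1 was 111 and 209 in Dnmt3a-KO cells, against 345 and 512 in WT cells. Pdgfra, the defining surface marker, was 2.04, 9.93, 18.3 and 6.41 in Dnmt3a-KO cells and 0.4645 (not well above background), 9.46, 14.9 and 5.96 in WT cells, so on the log2 scale it differed by 0.07 and 0.11 on days 4 and 6. Other surface markers were mixed on these days, Thy1 at -1.76 and -1.62, Cd34 at 0.43 and -0.52, and Ly6a at -0.36 and 1.01. Of the 9 markers tested, 2 were higher and 7 lower on day 4, and 2 higher and 7 lower on day 6. Smooth muscle and pericyte markers (5 of 8 well above background on all arrays) had list medians of 0.66, -0.54, -0.004 and -0.94. They summed to 15425, 13663, 22735 and 13791 in Dnmt3a-KO cells on days 2, 4, 5 and 6, against 14633, 23221, 24699 and 20572 in WT cells. Muscle cell markers (8 of the 9 with a probe on all arrays, Myf5 on none) summed to between 37110 and 43335 in Dnmt3a-KO cells and between 35007 and 46068 in WT cells, with medians of 0.12, -0.07, -0.11 and -0.13. Pax7, the defining gene of satellite cells, was 78.7, 11.9, 5.97 and 13.2 in Dnmt3a-KO cells and 105, 16.3, 15.96 and 21.2 in WT cells. Tendon, endothelial, leukocyte and Schwann cell markers had medians of -0.34, -0.53, -0.19 and -0.82 on day 4 and -0.55, 0.05, -0.22 and 0.08 on day 6. Fewer cells of a type and less RNA per cell cannot be told apart in these cultures, and the part of other cells in the matrix differences was not tested.

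**Figure D5:**
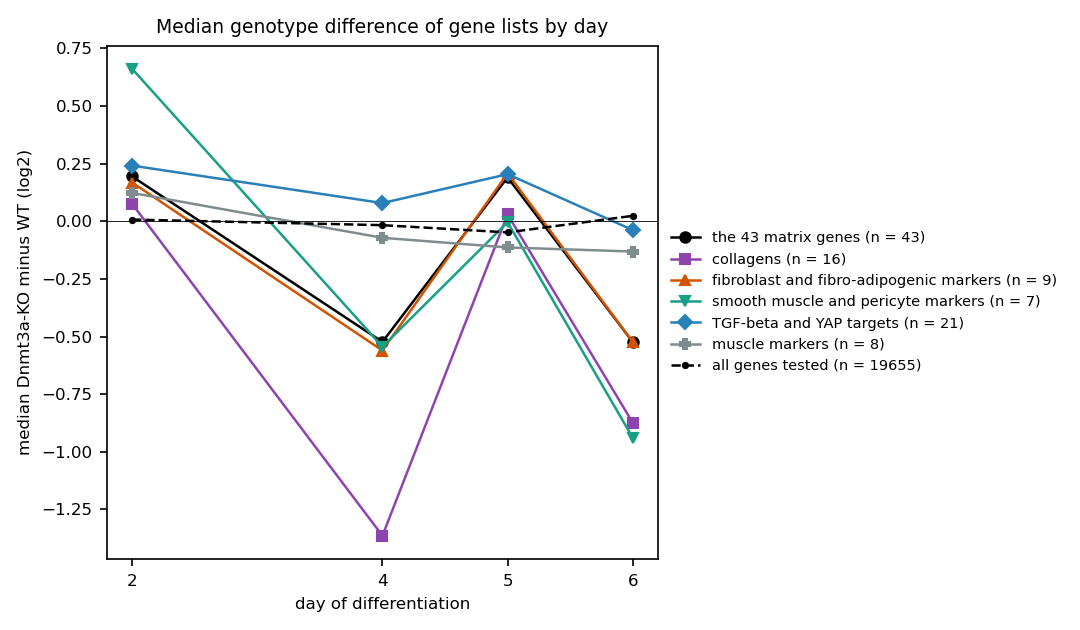
Median Dnmt3a-KO minus WT difference in log2 signal (y axis) on days 2, 4, 5 and 6 (x axis), with the number of genes in each list. Lists are the 43 matrix genes, collagens, 3 marker lists, targets and components of the TGF-beta and YAP pathways, and all genes tested. The medians of the matrix genes and the fibroblast markers lie close, at -0.52 and -0.56 on day 4, and those of muscle markers stay between -0.13 and 0.12. The fibroblast markers include the matrix genes Col1a1 and Col3a1, and single markers ran from -2.49 to 0.43 on day 4.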

How the data were processed

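RNA of each culture was hybridised to a 1-colour Agilent array, 1 per genotype and day. The scanner files as deposited hold spot intensity, background-subtracted by Agilent Feature Extraction, per the file headers, and the submitters' processing notes name version 9.5 while the headers of both day 2 arrays name a later one. The deposited value table holds a score that equals processed signal over the 75th percentile of each array times 100 within a tolerance of 1, with the column median at 6 on every array, and it was used as an alternative only.

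Processed signal was divided by the 75th percentile of its array over 43020 non-control spots, floored at one value (0.763 relative signal) and taken to log2. Outlier spots were removed, spots of a probe were averaged, and 273 of 39429 probes were left out. A gene's probe with the highest mean signal stood for it, and names come from RefSeq (GRCm38.p6) where an accession matched (26055 probes), otherwise from the files. The test took every gene whose probe cleared the background on 4 or more of the 8 arrays. R 4.3.3 and limma 3.58.1 gave the genotype effect with day as a block, since both arrays of a day shared a slide, a day slope adjusted for genotype, and their interaction. P-values were adjusted by Benjamini-Hochberg over all 19655 genes tested. Single days were not tested. A difference against an array not well above background is a bound: the bright signal was divided by the dim probe's own signal or, if higher, by the dimmest signal that cleared the background there. The number of arrays limits the precision.

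On simulated data with 100 genes changed at each size among 19655, the genotype model recovered 87% of changes of 1 log2 unit and 98% of changes of 2, with 4 false calls. The slope model recovered 98% at 0.5 and 99% at 1 log2 unit per day with 9 false calls, and the interaction 78% and 96% at these sizes with 12. These shares are over genes in general, and differences varied more between days in the members (median SD 0.59) than in all genes tested (0.20). The simulated noise was the spread left with day as a block, without shifts between slides or scanners. On the real data the slope and interaction models keep such shifts in part in their error. A shift of day 2, which had its own slide and scanner, can also enter the slope estimate itself. The simulated shares and false calls of both models therefore do not describe these tests on the real arrays.

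Members, lists and tests were chosen with earlier results of these data known. Per-array values are given in full for Fn1, Sparc, Postn, Dcn, Ctgf, Cyr61 and Eln, for members with 1 direction on all days, for the 3 highest and 3 lowest on each day and for up to 6 steepest slopes each way. Of the other lists only the collagens have genes named by size of effect, the 3 lowest means. Pdgfra, Thy1, Cd34, Ly6a and Pax7, and the signals of Col1a1 and Col3a1, are given besides, chosen after their values were seen. Promoters are from RefSeq (GRCm38.p6), and probe positions are on mm9, per the file headers, where exons were not placed. Protein sequences were not used here.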

Additional observations from a re-analysis of the deposited data

Results flagged for a closer look

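Elastin (Eln) differed between the genotypes by 0.086 on day 2 (Dnmt3a-KO minus WT, log2), apart from the other 3 days, on which the difference lay between 0.33 and 0.36. The gap to the nearest other day was 0.921 of the range of the 4 days, above Dixon's critical value. It was 1 of 43 members checked in this way, and chance alone gives about 1 in 20. Elastin was near background, with neither day 4 array well above it, and its mean difference of 0.28 over the days was 0.0013 with normexp and 0.54 with the deposited score.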

How the results depend on the processing

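No matrix gene passed the genotype threshold under any of the alternatives tried, and the counts of members lower on days 4 and 6 kept their size under other scalings. On day 4, 12 members were at least 2-fold lower, and 11 to 13 with quantile scaling, normexp, the deposited score or the mean of all probes, and on day 6 11 were lower, and 9 to 12 with these. Over all genes the genotype count of 2 became 0 with quantile scaling, 74 with normexp, 0 with the deposited score, 38 with probes well above background on all 8 arrays, 0 with no filter, 93 with a trended robust prior, 14 with array weights, 0 with no replicate block and 128 with day as a random block, and 0 to 3 with a day left out (0 without day 4 and 3 without day 2). The genotype effect changed sign for Mfap5 (-0.040 with quantile scaling, -0.20 with normexp, -0.17 with array weights), Fmod (0.040 with quantile scaling, 0.023 with the deposited score) and Fbn2 (-0.039 with normexp). With 1 day left out it ran from -0.70 to 0.60 for Mfap5, -0.0017 to 0.64 for Lox, -0.69 to 0.043 for Ctgf, -0.90 to 0.29 for Fbln2, -0.29 to 0.14 for Fmod, -0.27 to 0.26 for Mfap4, -0.42 to 0.16 for Ltbp2, -0.0014 to 0.40 for Comp, -0.48 to 0.72 for Fbn2, on both sides of 0, and the median over members from -0.29 to 0.0081.

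For the day slope, 8 members rose with no filter on dim probes and 8 fell with array weights, in place of 16 and 4 in the main fit. In the main fit 25.9% of all genes rose and 19.5% fell. The shares of all genes rising or falling under either alternative are not given here, so the counts are not read as a trait of the members. With slide as a block the slope is the step from day 4 to day 5, the only days that shared a slide, and says nothing of the other days. In that fit 0 genes passed, 0 members rose and 0 fell, the median was 0.69, and the sign changed for Vcan (0.51), Fbln1 (0.072), Ogn (-0.58), Spp1 (0.36), Fbn2 (0.70), Mfap4 (-0.23), Hspg2 (0.20) and Plod2 (0.13). It also changed for Cyr61 with quantile scaling (-0.020), Fbn2 with normexp (0.053) and Tnc with array weights (-0.032). With 1 day left out, 0 to 9863 genes passed (0 without day 2 and 391 without day 5), 0 to 23 members rose (0 without day 2 and 1 without day 5), 0 to 7 fell, the median ran from 0.088 to 0.29, and slopes from -0.059 to 2.2 for Postn, -0.59 to 0.15 for Nid2, -0.15 to 0.055 for Ltbp1, -0.28 to 0.028 for Vcan, -0.044 to 0.11 for Ogn, -0.093 to 1.4 for Loxl2, -0.37 to 0.57 for Spp1, -0.43 to 0.067 for Fbn2, -0.036 to 0.092 for Cyr61. The cause of the changes under settings other than the slide block was not tested.

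Of the 2-fold daily counts, those of day 5 higher became 2 with quantile scaling and 2 with the deposited score, and day 5 lower 1 with the mean of all probes. With normexp 4 were higher on day 2, 1 on day 4 and 0 on day 6. At 1.5-fold the counts were 12 higher on day 2, 4 higher and 20 lower on day 4, 6 higher on day 5, and 2 higher and 20 lower on day 6. Alternatives for the steps between neighbouring days were chosen after seeing the data: 18 to 23 members were at least 2-fold higher on day 5 than day 4 in Dnmt3a-KO cells and 2 to 3 in WT cells, and with the mean of all probes 2 were lower on day 5 than day 4, and 1 higher on day 6 than day 5, in Dnmt3a-KO cells. Signals under the floor have no order, and 3 members near background were not tested.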
